A study of Mus musculus with 3 samples.

Results

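Lymphatic endothelial cells were a small population among the mononuclear cells of the mouse diaphragm, and 262 of the 12275 cell barcodes in 3 single-cell RNA-Seq libraries were assigned to them. A barcode was selected when its unique molecular identifiers (UMIs, each marking 1 captured transcript) for Mmrn1, Clca3a1 and Flt4 summed to at least 3, at least 1 of them was for Mmrn1, and it held no UMI for the leukocyte gene Ptprc or the fibroblast gene Pdgfra. Mmrn1 encodes a secreted multimerin, Clca3a1 a chloride channel accessory protein and Flt4 the receptor VEGFR3 for lymphatic growth factors. Levels of these genes in the selected barcodes follow from that rule and are given as a description only.

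The 3 libraries were the 3 groups of the study. One library came from wild-type (WT) C57Bl/6J mice on control diet (CD), one from WT mice on high-fat diet (HFD, 45% of kilocalories from lipid) and one from mice of the strain B6.129S2-Thbs1tm1Hyn/J on HFD (KO HFD). In the last strain Thbs1, the gene of the secreted matrix protein thrombospondin 1, is inactivated throughout the body, and the strain name gives a 129S2 origin for the altered allele. All mice were males fed for 6 months from the age of 2 months, and each library pooled the costal diaphragms of 2 mice after collagenase II digestion and cytometric removal of DAPI-stained dead cells. With 1 library per group there was no replicate, so no difference between groups was tested. Each interval is a 95% interval for counting error alone and holds no variation between mice. No KO library on CD was analysed here, so the 2 comparisons made were diet in WT mice and genotype on HFD, and both use the WT HFD library.

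Lymphatic endothelial cells line the vessels that drain interstitial fluid, lipid and immune cells. Their fate depends on the transcription factor Prox1, and Flt4 carries the growth signal of VEGF-C and VEGF-D into them. Blind-ended capillaries take up fluid through loose junctions, carry the hyaluronan receptor Lyve1 and secrete the chemokine Ccl21a that guides dendritic cells, whereas downstream collecting vessels carry valves, tighter junctions and a muscular coat. Lymphatics of the diaphragm are known for draining the peritoneal cavity.

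The selected barcodes numbered 66 in WT CD, 121 in WT HFD and 75 in KO HFD, and their summed UMIs were 393654, 782225 and 475437. Median UMIs per barcode were 5102, 5840 and 5657, below the medians of the remaining barcodes of the same libraries (7678, 8136 and 7599). Levels are given below as CPM, the share of a gene in these summed UMIs times 1000000. At 50 CPM the summed count was about 19.7 UMIs in WT CD, 39.1 in WT HFD and 23.8 in KO HFD, which makes WT CD the least precise group. Median mitochondrial share was 4.07% in WT CD, 3.2% in WT HFD and 3.1% in KO HFD. Ribosomal protein transcripts took 18.3%, 15% and 17.7% of UMIs, and the single gene Gm42418, which overlaps ribosomal RNA sequence, took 8.34%, 7.47% and 5.81%.

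The threshold lay in a sparse part of the distribution. The 3 selecting genes summed to a median of 13.5, 19 and 18 UMIs per selected barcode in WT CD, WT HFD and KO HFD. Just inside the threshold, at a sum of 3, were 1, 1 and 2 barcodes, and just outside it, at a sum of 2, were 1, 3 and 0. A further 3 barcodes of WT CD and 1 of WT HFD reached the sum without any Mmrn1 UMI. All 4 of them held Flt1, a receptor of blood endothelium, and none held Prox1, Lyve1 or Ccl21a. Ptprc or Pdgfra UMIs kept out 4, 6 and 7 barcodes that otherwise met the rule. No cell barcode sequence of the selected set occurred in more than 1 library, while 16 did so in the whole series.

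Markers of other cell types were low in most selected barcodes, with 2 exceptions that matter for the comparisons. In WT CD, 8 B cell marker genes summed to 470.0 CPM, against 5.11 in WT HFD and 4.21 in KO HFD. Of the 185 B cell UMIs in WT CD, 139 came from 1 barcode, the most abundant gene was Igkc, and the marker Ighd was at 0. Barcodes of the WT CD library in neither endothelial set also held far more B cell transcript (33867 CPM) than those of WT HFD (2681 CPM) or KO HFD (3922 CPM). In KO HFD, 10 markers of fibro-adipogenic progenitors (FAPs) summed to 1336 CPM, against 221 in WT CD and 104 in WT HFD. One KO HFD barcode held 360 of those 635 UMIs, Gsn was the most abundant, and Pdgfra was at 0 by the rule.

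Barcodes with at least 10 UMIs from the marker list of another non-endothelial class, called mixed barcodes here, numbered 5, 4 and 5. Without them the FAP markers came to 133 CPM in WT CD, 91.8 in WT HFD and 143 in KO HFD. Satellite cell (MuSC) markers summed to 203, 90.8 and 202 CPM, with Sdc4 the most abundant, and Schwann cell markers to 149.9, 129 and 145 CPM, almost all from Pmp22. Macrophage markers stood at 45.7, 30.7 and 50.5 CPM with Itgam and Adgre1 at 0. Mural cell markers reached 35.6, 70.3 and 44.2 CPM with Myh11 at 0, and myofiber markers, led by Acta1, 137, 81.8 and 147 CPM. Of 8 T and NK cell markers 7 were at 0, as were 7 of 8 mesothelial markers, and erythroid and platelet markers stayed at or below 6.31 CPM. The 12 blood endothelial markers, led by Gpihbp1, summed to 1229.5, 1397 and 1767 CPM in the lymphatic set and to 9029.8, 9347 and 8301 CPM in the blood endothelial set.

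The share of lymphatic barcodes was about 2-fold higher in the WT HFD library than in either of the others. It was 1.60% of barcodes in WT CD (exact binomial interval 1.24 to 2.03), 3.21% in WT HFD (2.67 to 3.82) and 1.72% in KO HFD (1.35 to 2.15). WT HFD exceeded WT CD by 1.61 percentage points (Newcombe interval 0.937 to 2.31), and KO HFD differed from WT HFD by -1.49 points (-2.19 to -0.818). Between KO HFD and WT CD the difference was 0.119 points, with an interval from -0.432 to 0.667. These are shares of cells that survived digestion and the dead-cell gate, so release from the tissue and number in the tissue cannot be told apart.

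Against the other endothelium the pattern was partly retained. Blood endothelial barcodes were those with at least 3 UMIs over Flt1, Ptprb and Pecam1 including Flt1, and without Ptprc or Pdgfra UMIs. They made up 6.46% of barcodes in WT CD (5.73 to 7.25), 7.0% in WT HFD (6.20 to 7.86) and 5.06% in KO HFD (4.43 to 5.75). Lymphatic barcodes were thus 19.8% of both endothelial sets in WT CD (15.7 to 24.5), 31.4% in WT HFD (26.8 to 36.3) and 25.3% in KO HFD (20.5 to 30.7). On this scale WT HFD exceeded WT CD by 11.6 points (5.21 to 17.8), whereas the KO HFD minus WT HFD difference of -6.09 points had an interval that included 0 (-12.8 to 0.781). The lower lymphatic share in KO HFD therefore went along with a lower blood endothelial share in the same library, which differed from WT HFD by -1.94 points (-2.99 to -0.902).

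**Figure D1:**
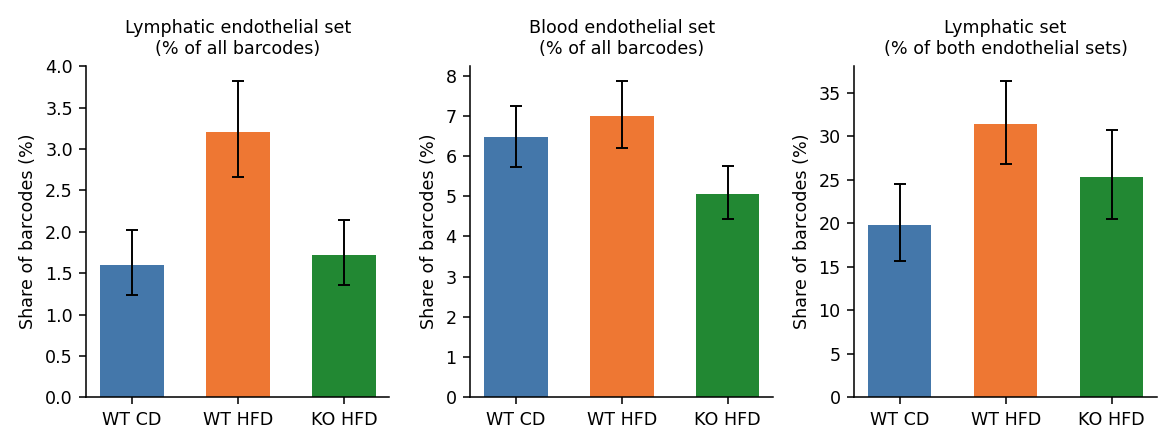
Lymphatic barcodes were most frequent in the WT HFD library. Bars give the share of all barcodes (%) in the lymphatic and blood endothelial sets and the lymphatic share of both sets together, in 1 library per group, and error bars are exact 95% binomial intervals for counting error; the lymphatic bars stand at 1.60%, 3.21% and 1.72%.

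Genes that the rule did not use placed the set within lymphatic endothelium. Ccl21a (chr4:42772860-42773993, GRCm38) had the largest excess over blood endothelial barcodes among genes with at least 200 CPM, at 12097 CPM against 0.331, where 0.331 CPM is 1 UMI in the whole blood endothelial set. By library it stood at 8256 CPM in WT CD, 13139 in WT HFD and 13562 in KO HFD. UMIs of Ccl21a were found in 84.0% of lymphatic barcodes, in 0.133% of blood endothelial barcodes and in 0.593% of barcodes with a Pdgfra UMI. Ccl21a belongs to a multicopy family, and of the 5 other Ccl21 entries in the annotation only 1 held any UMI in the set, namely 1. Prox1 (chr1:190118035-190170714) was found in 82.8% of lymphatic barcodes, 1.46% of blood endothelial and 2.12% of Pdgfra barcodes, and Lyve1 (chr7:110850607-110863239) in 76.7%, 0.266% and 1.11%. The median depth of those classes was 5664.5 UMIs for the lymphatic set, 3448 for the blood endothelial set and 8824 for the Pdgfra barcodes. Thinned to 3000 UMIs each, which left out 13, 11 and 10 shallower lymphatic barcodes, Prox1 was seen in 73.6%, 75.5% and 73.8% of WT CD, WT HFD and KO HFD barcodes and in 0.871% of blood endothelial ones. Of the 262 barcodes, 4 lacked UMIs of Prox1, Lyve1 and Ccl21a together.

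Nts, which encodes the peptide neurotensin, reached 2524 CPM and was at 0 UMIs in the blood endothelial set, so its ratio there was at least 2543-fold against a floor of 3 UMIs over that set. By library Nts stood at 3612, 1904 and 2644 CPM in WT CD, WT HFD and KO HFD. One barcode of WT CD held 28.9% of that library's Nts UMIs. Reln, which encodes the secreted protein reelin, was nearly level at 592, 587 and 595 CPM, and Prox1 stood at 597, 680.1 and 568 CPM. The remaining genes with a large excess over blood endothelium were the polarity gene Pard6g, Gpm6a, Lcn2 (lipocalin 2, 858 against 3.31 CPM), Pkhd1l1, Fgl2 (1691 against 7.61 CPM), Sema3d, Maf (596 against 7.28 CPM) and Adgrg3. Spp1 also met that criterion at 217 CPM, but its UMIs came from 2 barcodes, 76.3% of them from 1.

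Of 18 lymphatic genes outside the rule, all had at least 50 CPM, 17 were at least 1.5-fold above blood endothelial barcodes and 1, the transcription factor Sox18, was below. Their median log2 ratio was 6.04, against 0.01 over 3532 genes, of which 680 were higher and 738 lower. The list was chosen with earlier results of these data known, so this count is a description and no test of identity. Podoplanin (Pdpn), often used as a lymphatic marker, was the least specific in this tissue. It was seen in 47.3% of lymphatic barcodes, in 1.73% of blood endothelial barcodes and in 57.5% of Pdgfra barcodes.

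**Figure D2:**
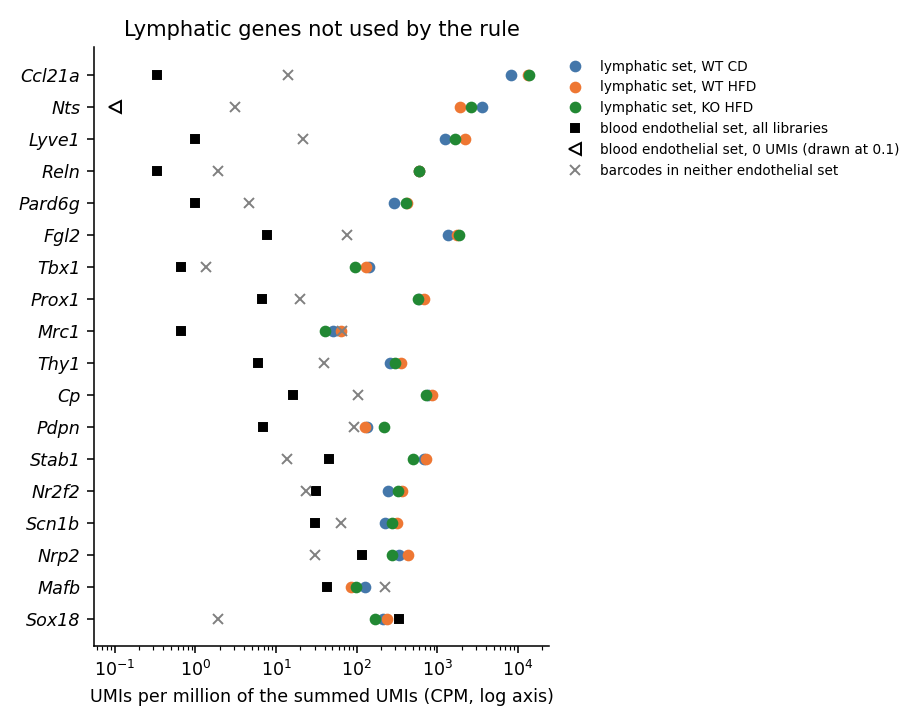
Lymphatic genes outside the selection rule separated the lymphatic set from blood endothelium in all 3 libraries. The horizontal axis gives CPM of the summed UMIs on a log scale; circles are the lymphatic set by library, squares the blood endothelial set and crosses the barcodes in neither endothelial set, and Sox18 is the gene whose blood endothelial level lies to the right.

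A further comparison was with the barcodes in neither endothelial set, which leaves out blood endothelium, so genes shared by both kinds of endothelium rank high in it. Among the leading genes by this ratio were Clca3a1 and Flt4 themselves, Klhl4 (319.7 against 0.408 CPM), the tight junction gene Cldn5 (1680.5 against 4.81 CPM), the receptor kinase gene Tie1 (243 against 1.01 CPM), Apold1, Emcn, Gpihbp1, Sox18 and Egfl7. Genes abundant in blood endothelium were in turn low in lymphatic barcodes. The fatty acid binding protein gene Fabp4 stood at 483 CPM against 18171, the scavenger receptor gene Cd36 at 84.8 against 2332, and the chemokine gene Cxcl12 at 27.3 against 2370.4. The junction gene Jam2 was at 2.42 against 439 CPM and the VEGF co-receptor gene Nrp1 at 4.24 against 621 CPM, whereas Nrp2, the co-receptor paired with Flt4, went the other way at 365 against 116 CPM.

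The list counts in this paragraph stand beside 680 higher and 738 lower of 3532 genes overall. By gene list, 11 of 12 antigen presentation genes with at least 50 CPM were lower in lymphatic than in blood endothelial barcodes (median log2 ratio -1.69). So were 12 of 16 interferon response genes, with 1 higher, and 9 of 16 lipid uptake and oxidation genes, with 0 higher. Junction genes were divided, with 2 of 12 higher and 7 lower. In leukocyte trafficking, 8 of 14 were higher and 5 lower. The higher ones included Il7, the survival cytokine of T cells (128 against 1.65 CPM), and the chemokine-scavenging receptor gene Ackr2 (87.8 against 0.331 CPM). Thrombospondin family and receptor genes had 6 of 10 higher and 2 lower, the higher including Comp (thrombospondin 5, 106 against 0.331 CPM) and the thrombospondin 1 receptor gene Cd47 (738 against 338 CPM).

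The lymphatic barcodes themselves fell into 2 large subsets when clustered without the selecting genes and without the 1156 genes that differed 1.5-fold between libraries. They are called Lyve1-high (120 barcodes) and Lyve1-low (141 barcodes) after Lyve1, which was not used in the clustering, and 1 barcode of 751 UMIs stood apart. Because the subsets were cut from the same transcript counts, the gene differences between them describe the cut and are no test. Lyve1 stood at 3763 CPM in the first and 789.7 CPM in the second. The leading genes of the Lyve1-high subset were the water channel gene Aqp1 (230.1 against 2.80 CPM), Myo5b, Lgals3, the growth factor gene Igf2 (388 against 13.1 CPM), AA467197, the potassium channel gene Kcnn3, the mechanosensitive channel gene Piezo2 (206 against 13.1 CPM) and the mannose receptor gene Mrc1. The Lyve1-low subset was led by Apoe (apolipoprotein E, 1055 against 13.8 CPM), the growth factor gene Bmp4 (83.0 against 1.73 CPM), Hacd4, Bcam, Adm, Gdf15, Rnd1 and Tmem158.

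Lists of vessel type genes went in opposite directions between the subsets. Of 9 capillary genes with at least 50 CPM in a subset, 7 were higher in Lyve1-high and 1, Nts, was lower (median log2 ratio 1.78). Of 12 collecting vessel and valve genes, 8 were higher in Lyve1-low and 2 in Lyve1-high (median -1.27), against 474 and 758 of 3458 genes overall (median 0.07). The selecting gene Clca3a1 was also uneven, at 125 CPM in Lyve1-high and 609.8 in Lyve1-low, and so was the transcription factor Foxp2, at 29.4 and 165 CPM. Prox1 hardly differed, at 664 and 607 CPM. The Lyve1-low subset was also higher in 15 of 17 immediate early genes (median -1.21), for example Egr1 at 3580.2 against 801 CPM and Fos at 4239 against 1362 CPM. Klf2 and Klf4, both higher in Lyve1-low, are in this list and in the collecting vessel list. The 12 heat shock genes had a median of 0.10. Median depth was 4497 UMIs in Lyve1-high and 6606 in Lyve1-low, the median mitochondrial share was 4.16% and 2.93%, and 12 of the 14 mixed barcodes lay in Lyve1-low. The part of depth, of immediate early genes and of mixed barcodes in this division was not tested.

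Both subsets occurred in every library. Lyve1-high barcodes were 48.5% of the set in WT CD (36.0 to 61.1), 51.2% in WT HFD (42.0 to 60.4) and 34.7% in KO HFD (24.0 to 46.5). These intervals overlapped, which does not show that the shares were alike, and their differences were not tested. Apoe and Reln lay on the same side in each library, but not every gene did so clearly. AA467197 had 2 UMIs in each subset in KO HFD (16.2 CPM in Lyve1-high, 5.68 in Lyve1-low). Nts was nearly level between Lyve1-high and Lyve1-low in WT HFD (1880 and 1924 CPM). Apoe in Lyve1-low stood at 1078, 1052 and 1043 CPM in WT CD, WT HFD and KO HFD, and in Lyve1-high at 8.34, 5.98 and 40.5 CPM. Reln in Lyve1-high stood at 1468, 921 and 1198 CPM, above each of the Lyve1-low values of 208, 336 and 384 CPM.

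**Figure D3:**
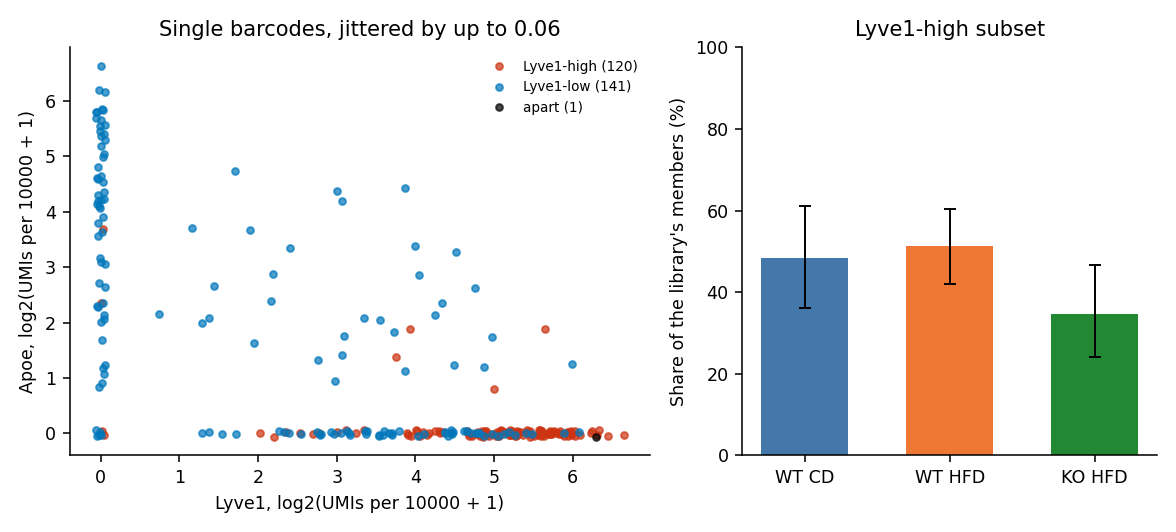
Most barcodes with many Lyve1 UMIs held few Apoe UMIs, with exceptions such as a WT HFD barcode with 22 Lyve1 and 33 Apoe UMIs. The left panel plots each of the 262 barcodes by Lyve1 and Apoe on a log2 scale of UMIs per 10000, coloured by subset, and the right panel gives the share of each library's lymphatic barcodes in the Lyve1-high subset with exact 95% binomial intervals, at 48.5%, 51.2% and 34.7%.

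With HFD in WT mice, more genes of the lymphatic set were higher than lower. Among 3263 genes with at least 50 CPM in WT CD or WT HFD, 540 (16.5%) were at least 1.5-fold higher in WT HFD and 118 (3.62%) at least 1.5-fold lower, with a median log2 ratio of 0.16 over all of them. That shift depended on the scaling. With TMM factors 339 genes were higher and 186 lower, so the share of higher genes among those past 1.5-fold went from 82.1% to 64.6%, and the log2 ratios below should be read against the median of 0.16.

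The genes with the largest ratios of WT HFD to WT CD were Gap43, Cd36, Ednrb, Limch1, Stc1, Btnl9, Igfbp3, Phip, Abcf1 and Maf. Gap43 (chr16:42248442-42340651), which encodes a membrane protein of growing axons, went from 17.8 CPM in WT CD to 109 in WT HFD and 35.8 in KO HFD (log2 ratio of WT HFD to WT CD 2.61, interval 1.51 to 3.97). Its UMIs lay in 5, 37 and 8 barcodes of the 3 libraries. Ednrb (chr14:103814625-103844402), the endothelin B receptor gene, stood at 96.5, 313 and 156 CPM (1.70, 1.20 to 2.23), and in blood endothelial barcodes at 65.5, 46.7 and 48.8 CPM. Higher levels in WT HFD for both genes were seen in each subset, with log2 ratios for Ednrb of 1.75 in Lyve1-high and 1.46 in Lyve1-low.

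Maf (chr8:115682942-115707794), a transcription factor gene found in 49 of 66 WT CD barcodes and 104 of 121 WT HFD barcodes, was the most abundant of the 10, at 302, 748 and 591 CPM (log2 ratio 1.31, interval 1.02 to 1.60). Stc1, the gene of the secreted hormone stanniocalcin 1, stood at 43.2, 136 and 46.3 CPM, and Btnl9, a butyrophilin-like gene, at 88.9, 239 and 189 CPM. Cd36 was at 20.3, 105 and 105 CPM in the lymphatic set and at 1850.0, 2786 and 2309 CPM in blood endothelium. Igfbp3 had a log2 ratio of 1.38, which was 0.87 without mixed barcodes. Outside this ranking and picked after its values were seen, Igfbp5, the gene of an insulin-like growth factor binding protein, was one of the most abundant genes past 1.5-fold, at 1509, 3231 and 3088 CPM (log2 ratio 1.10).

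For several of the lowest ratios, 1 barcode held most of the WT CD UMIs. The immunoglobulin gene Igkc (312 CPM in WT CD, 2.56 in WT HFD) and Cd74 (193 and 8.95 CPM), part of the antigen-presenting machinery of B cells, had 89 of 123 and 72 of 76 WT CD UMIs in 1 barcode, and once the top barcode of each library was left out the log2 ratio was -0.41 for Cd74. Igkc was found in 20 of 66 WT CD barcodes and had a ratio of -6.09 without the top ones. Metallothionein genes behaved alike, with 74 of 88 Mt2 UMIs and 70 of 110 Mt1 UMIs of WT CD in 1 barcode, and the log2 ratio of Mt2 went from -1.93 to 0.38. Meg3 (24 of 41 UMIs) and Slc41a1 (50 of 81) were likewise concentrated, with ratios of -2.51 and -1.07 without the top barcodes. The low ratios spread over more barcodes were those of Egr3, an immediate early transcription factor gene (124, 38.4 and 31.5 CPM, log2 ratio -1.70), Pds5b (114, 39.6 and 48.4 CPM), Cited2 (109, 40.9 and 92.5 CPM) and Gem (175, 66.5 and 128 CPM). Without the top barcodes their log2 ratios were -1.91, -0.99, -0.89 and -1.28. Gem had opposite signs in Lyve1-high (0.46) and Lyve1-low (-1.83) barcodes.

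**Figure D4:**
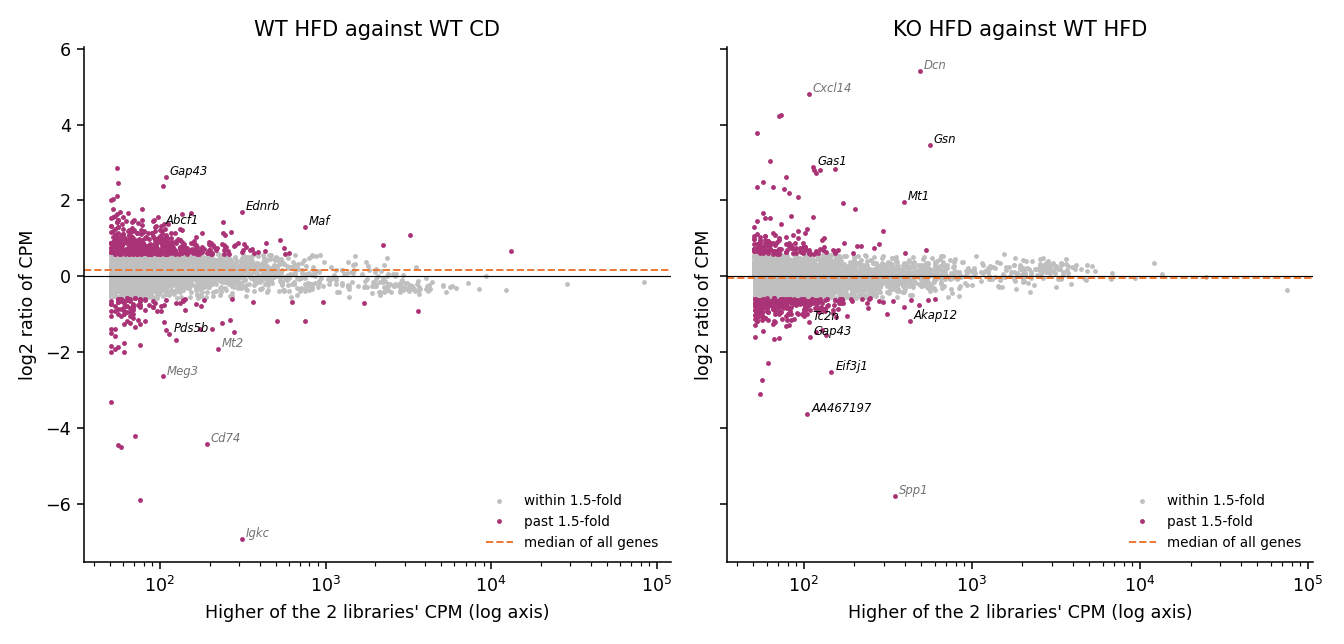
Most genes past 1.5-fold lay below 200 CPM. Points are genes that reached 50 CPM in either library of the pair; the horizontal axis is the higher CPM of the 2 on a log scale, the vertical axis the log2 ratio of CPM, the dashed line the median (0.16 for WT HFD against WT CD, -0.05 for KO HFD against WT HFD), and names in gray are genes with most of their UMIs in 1 barcode.

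The counts for gene lists that follow stand beside 16.5% higher and 3.62% lower over all genes compared. Of the 18 lymphatic identity genes outside the rule, 2 were past 1.5-fold higher with HFD and 1 lower, or 1 higher and 2 lower with TMM factors, with a median log2 ratio of 0.26 or 0.13. Lyve1 stood at 1257 CPM in WT CD, 2221 in WT HFD and 1674 in KO HFD (0.82, interval 0.68 to 0.97), and Ccl21a had a ratio of 0.67 (0.61 to 0.73). With TMM factors Ccl21a fell short of 1.5-fold at 0.54, whereas Lyve1 stayed past it at 0.69. With both subsets weighted alike, both genes were short of 1.5-fold, Ccl21a at 0.38. For both genes the difference was larger in Lyve1-low (1.08 and 1.05) than in Lyve1-high (0.33 and 0.11) barcodes, a contrast with no test. Thinned to 3000 UMIs, Lyve1 was found in 56.6%, 74.5% and 78.5% of WT CD, WT HFD and KO HFD barcodes, against 66.7%, 80.2% and 80.0% unthinned. Nts was the lower one, with a ratio of -0.92 that was -0.61 without the top barcodes and had opposite signs in Lyve1-high (0.91) and Lyve1-low (-1.31).

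In the VEGF and angiopoietin list, 4 of 11 genes were higher in WT HFD and 1 lower, or 3 and 1 with TMM factors. The higher ones were the receptor genes Kdr (VEGFR2) at 335, 559.9 and 448 CPM and Flt4 at 396, 603 and 471 CPM, the ligand gene Vegfb at 40.6, 78.0 and 50.5 CPM, and Ptprb, a phosphatase that restrains the angiopoietin receptor, at 109, 197 and 147 CPM. Flt4 entered the selection rule, so its level is a description, and its log2 ratio of 0.61 fell short of 1.5-fold with TMM factors (0.48) and without mixed barcodes (0.56). Adm, which encodes the peptide adrenomedullin, went from 142 to 76.7 CPM and stood at 92.5 CPM in KO HFD.

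Lipid uptake, storage and oxidation genes had 4 of 10 higher, Cd36, Fabp4, the mitochondrial gene Hadha and Ucp2, and 1, the lipoprotein lipase gene Lpl, lower. With TMM factors 2 were higher and 1 lower, and the median log2 ratio of 0.56 was 0.43. Fabp4 stood at 272, 528 and 583 CPM, and without mixed barcodes its ratio was 0.39 instead of 0.96. Hadha and Ucp2 went from 0.64 and 0.68 to 0.55 and 0.52 in the same way, short of 1.5-fold, while Cd36 was at 2.31. Of 17 matrix genes 2 were higher, and also 2 with TMM factors, beside 540 and 339 of all 3263 genes. Both of the 2 encode type IV collagen of the basement membrane, Col4a1 at 218, 359 and 276 CPM and Col4a2 at 78.7, 141 and 119.9 CPM. Leukocyte trafficking had 4 of 13 higher, Ccl21a, the adhesion gene Icam1, Ackr2 and Cd200, and 2 lower, Il33 and Ccl2. With TMM factors only Ackr2 of the 4 stayed past 1.5-fold, and the median log2 ratio of the list went from 0.16 to 0.03. Of 27 Ccl2 UMIs in WT CD 21 came from 1 barcode, and its ratio turned from -0.75 to 1.21 without the top barcodes.

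Heat shock genes had 3 of 12 lower and 0 higher, Hspa1a at 511, 224 and 273 CPM, Hspa1b at 754, 332 and 372 CPM, and Dnajb1 at 363, 225 and 244 CPM. In Lyve1-low barcodes Hspa1a and Hspa1b were short of 1.5-fold, with log2 ratios of -0.23 and -0.48, against -3.29 and -2.21 in Lyve1-high barcodes. Dnajb1 was short of 1.5-fold within each subset. From WT CD to WT HFD it went from 475 to 333 CPM in Lyve1-low and from 108 to 80.7 CPM in Lyve1-high barcodes. Immediate early genes had 2 of 17 lower, Klf2 and Nr4a1, 0 higher and a median log2 ratio of -0.31, which was -0.07 with both subsets weighted alike. The subsets differed in direction. From WT CD to WT HFD, Lyve1-high barcodes went from 934 to 1522 CPM for Fos, 534 to 888 for Egr1 and 509 to 658 for Klf2. Lyve1-low barcodes went from 4936 to 3969, 4340 to 3551 and 2247 to 1331 CPM. Ier3 went the other way, from 284 to 143 CPM in Lyve1-high and 606 to 799 CPM in Lyve1-low. In blood endothelial barcodes Hspa1a and Hspa1b also had negative ratios, -1.29 and -1.08. Collecting vessel and valve genes had 4 of 12 lower (Gata2, Clu, Bmp4 and the flow-responsive gene Klf2) and 2 higher, or 4 and 1 with TMM factors. Clu had 18 of 30 UMIs of WT CD in 1 barcode, and without the top barcodes the ratios of Clu (-0.45) and Klf2 (-0.54) fell short of 1.5-fold. Antigen presentation genes had 2 of 10 higher (Tap2 and Psmb8) and 4 lower, and with TMM factors Tap2 fell short at 0.46. The lower ones, Cd74 and the class II genes H2-Aa, H2-Ab1 and H2-Eb1, had most of their WT CD UMIs in 1 barcode (72 of 76, 28 of 30, 18 of 22 and 21 of 23), whereas the class I genes H2-D1 (864, 865 and 854 CPM) and H2-K1 (373, 389 and 379 CPM) were level. Endothelial junction genes had 1 of 11 higher, Notch genes 0 of 4 in either direction, interferon response genes 2 of 9 higher, TGF-beta and BMP genes 1 of 16 higher and 2 lower, and sterol synthesis genes 1 of 4 each way. With TMM factors junction genes had 0 higher, interferon response genes 1 each way, and TGF-beta and BMP genes 0 higher and 3 lower. Glucocorticoid and circadian genes (3 tested) and cycling genes (2 tested) had none past 1.5-fold.

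For the comparison of genotypes on HFD, 3323 genes reached 50 CPM in either library. Of these, 155 (4.66%) were at least 1.5-fold higher in KO HFD and 314 (9.45%) lower, with a median log2 ratio of -0.05. The balance between the directions depended on the scaling. TMM factors gave 186 higher and 262 lower, and median-of-ratios factors 218 higher and 227 lower, so the share of higher genes among those past 1.5-fold was 33.0%, 41.5% or 49.0%.

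The largest ratios of KO HFD to WT HFD were led by transcripts abundant in fibroblasts. Dcn (decorin) stood at 38.1, 11.5 and 492 CPM in WT CD, WT HFD and KO HFD, with 150 of the 234 KO HFD UMIs in 1 barcode, and its log2 ratio went from 5.42 to 1.29 without mixed barcodes. All 51 Cxcl14 UMIs came from 1 barcode. Gsn, Mgp, Igfbp6 and Mt1 went from 3.45, 2.79, 2.72 and 1.96 to 0.66, 0.56, 0.56 and 0.48 without mixed barcodes. The FAP markers in the same library were given above, and their part in these ratios was measured only by leaving the mixed barcodes out.

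Besides Dcn and Gsn, the genes Gpx3, Gas1, Meg3 and Cxcl1 stayed past 1.5-fold without mixed barcodes. Gpx3, which encodes a secreted glutathione peroxidase, stood at 76.2, 21.7 and 154 CPM with a log2 ratio of 2.82 (2.04 to 3.68), or 3.28 without mixed barcodes. The neutrophil chemokine gene Cxcl1 stood at 61.0, 44.7 and 170.4 CPM with a ratio of 1.93 (1.34 to 2.54), or 2.26 without mixed barcodes. Few cells carried these last 2 genes, Gpx3 being found in 9 and Cxcl1 in 13 of 75 KO HFD barcodes. Gas1 and Meg3, with 54 and 55 UMIs in KO HFD, were each found in 6 barcodes, 1 of which held 27 of the Gas1 and 1 of which held 23 of the Meg3 UMIs.

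Among the lowest ratios in KO HFD, Gap43 and Stc1 were genes that ranked among the highest ratios with HFD in WT mice. Gap43 was at 109 CPM in WT HFD and 35.8 in KO HFD (log2 ratio -1.60, interval -2.45 to -0.84) and Stc1 at 136 and 46.3 CPM (-1.55, -2.28 to -0.88). Within Lyve1-high barcodes the ratio of Stc1 was -2.18 and within Lyve1-low barcodes -0.07. Gap43 was mostly a Lyve1-high transcript, at 156 against 16.8 CPM in Lyve1-low. Its ratio was -0.81 within Lyve1-high barcodes and -0.92 with both subsets weighted alike. Within Lyve1-low barcodes it was -2.36, from 13 UMIs in WT HFD and 2 in KO HFD. Because both comparisons use the WT HFD library, its error enters both in opposite directions. Akap12, a scaffold of protein kinase A, stood at 330.2, 426 and 187 CPM (-1.19, -1.54 to -0.84), the cyclin gene Ccnd2 at 66.0, 129 and 48.4 CPM, and Afap1l1 at 53.3, 118 and 42.1 CPM. Tc2n and Pitpna followed with log2 ratios of -1.21 and -1.07, and Pitpna was at -2.13 in Lyve1-high and -0.10 in Lyve1-low barcodes. In blood endothelial barcodes Akap12 was level, at 343, 359 and 360.4 CPM. Spp1 was at 0 in KO HFD, but its 273 UMIs in WT HFD all came from 1 barcode.

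Eif3j1 and AA467197, with the lowest ratios after Spp1, are genes of chromosome 2 near Thbs1 (chr2:118111876-118127133). Eif3j1 (chr2:122028546-122056598), a subunit gene of translation initiation factor 3 at 3.92 Mb from Thbs1, had 49, 114 and 12 UMIs, or 124, 146 and 25.2 CPM, and a log2 ratio of -2.53 (-3.52 to -1.67). Its UMIs lay in 33 of 66 WT CD barcodes, 68 of 121 WT HFD barcodes and 12 of 75 KO HFD barcodes. The same was measured in blood endothelial barcodes (-1.97) and in barcodes of neither endothelial set (-2.04). Eif3j2, its near-identical copy on another chromosome, moved the opposite way, with 6, 10 and 37 UMIs in the lymphatic set and 2, 2 and 70 in blood endothelium. Summed over both copies the levels were 139.7, 159 and 103 CPM, with a log2 ratio of KO HFD to WT HFD of -0.62 in the lymphatic set and -0.22 in blood endothelium. Reads of these copies could have been assigned to either gene, which was not tested, so the level of each alone is uncertain.

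AA467197 (chr2:122636986-122641191), at 4.53 Mb from Thbs1 and a leading gene of the Lyve1-high subset, had 26, 82 and 4 UMIs, or 66.0, 105 and 8.41 CPM (-3.64, -5.55 to -2.23). Its UMIs lay in 10, 26 and 4 barcodes, 1 of which held 16 of the 26 in WT CD, and without the top barcodes the ratio of KO HFD to WT HFD was -3.77. Within Lyve1-high barcodes alone it stood at 183, 230.2 and 16.2 CPM. Blood endothelial barcodes held 0, 5 and 6 UMIs, too few to compare, and barcodes of neither endothelial set had a log2 ratio of -1.49. Of 38 genes tested within 10 Mb of Thbs1, 3 were past 1.5-fold higher in KO HFD (Thbs1, Gchfr and Duox2) and 5 lower (Eif3j1, AA467197, Secisbp2l, Usp8 and Snrnp200), beside 4.66% higher and 9.45% lower over all genes, and no excess near Thbs1 was tested. The strain label gives a 129S2 origin for the altered allele, and whether sequence around it differs from the reference was not tested.

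**Figure D5:**
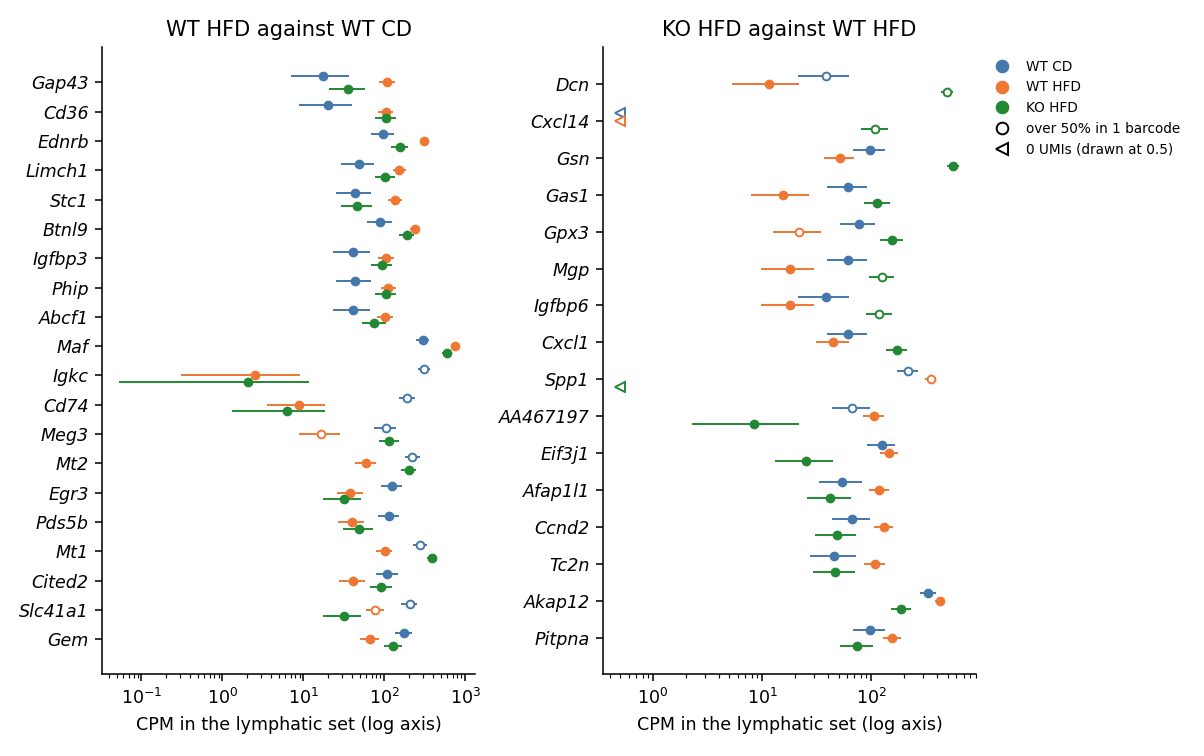
Genes with the largest ratios in the lymphatic set, by library. The horizontal axis gives CPM on a log scale with exact 95% Poisson intervals for counting error, colours mark WT CD, WT HFD and KO HFD, open circles mark a library in which 1 barcode held over 50% of the UMIs, and triangles mark 0 UMIs; Eif3j1 stands at 124, 146 and 25.2 CPM.

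The targeted gene itself was sparse in lymphatic barcodes. Thbs1 had 32, 28 and 34 UMIs in WT CD, WT HFD and KO HFD, or 81.3, 35.8 and 71.5 CPM, and stood at 22.5 CPM in Lyve1-high and 75.5 CPM in Lyve1-low barcodes. A 3' tag can be counted from a transcript that carries the altered allele, so these UMIs do not check the genotype. Among 10 thrombospondin family and receptor genes, Thbs1 and the heparan sulfate proteoglycan gene Sdc4 were higher in KO HFD than in WT HFD and 1, Calr, was lower (394, 486 and 284 CPM), with a median log2 ratio of -0.13. Sdc4 had a ratio of 1.13, which was 0.39 without mixed barcodes. Of the 34 Thbs1 UMIs in KO HFD 13 came from 1 barcode, against at most 5 of 28 in any WT HFD barcode. With HFD in WT mice Comp (68.6, 133 and 92.5 CPM) and Cd36 were higher, and Thbs1 and Sdc4 were lower. Cd47 stood at 566, 793 and 789 CPM, under 1.5-fold in both comparisons.

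The list counts for KO HFD that follow stand beside 4.66% higher and 9.45% lower over all genes compared. Of the lymphatic identity genes, 1 of 18 was higher and 2 were lower in KO HFD (median log2 ratio -0.22). Pdpn was higher, at 135, 125 and 219 CPM (0.80, interval 0.39 to 1.22), with ratios of 0.66 and 0.77 in Lyve1-high and Lyve1-low barcodes. Nrp2 was lower, at 335, 433 and 278 CPM (-0.64, -0.94 to -0.35), and so was Mrc1, at 50.8, 63.9 and 40.0 CPM. Neither was past 1.5-fold within a subset, with ratios in Lyve1-high and Lyve1-low barcodes of -0.38 and -0.27 for Nrp2 and of -0.15 and 0.02 for Mrc1. Lyve1, Ccl21a and Prox1 stayed within 1.5-fold, with ratios of -0.41, 0.05 and -0.26. In the VEGF and angiopoietin list 3 of 11 were lower, Nrp2, Vegfb and the vessel-destabilizing ligand gene Angpt2 (117, 148 and 75.7 CPM), and 0 higher. Vegfb was at -0.63, or just short of 1.5-fold at -0.58 with TMM factors, and Angpt2 at -0.97, or -0.58 without mixed barcodes.

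Leukocyte trafficking genes past 1.5-fold in KO HFD were mostly chemokines. Of 13 leukocyte trafficking genes 3 were higher, Cxcl1, Cxcl12 (10.2, 17.9 and 56.8 CPM) and the monocyte chemokine gene Ccl2 (68.6, 40.9 and 86.2 CPM), and 1, Ackr2, was lower (61.0, 112 and 69.4 CPM). Bmp4 stood at 71.1, 28.1 and 84.1 CPM and Id3, a target gene of BMP signalling, at 412, 331 and 536 CPM, the 2 of 16 TGF-beta and BMP genes that were higher. Interferon response genes had 2 of 9 higher, Isg15 (117, 155 and 279.7 CPM) and Iigp1, and 2 lower, Irf1 and Gbp7. Of 18 matrix genes, Sparc (88.9, 129 and 294 CPM) and Col1a2 were higher and the basement membrane genes Lama4 and Nid1 lower. Of 25 Col1a2 UMIs in KO HFD 20 came from 1 barcode.

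The remaining lists held few genes past 1.5-fold. Lipid genes had 3 of 11 higher (Lpl, Acadm and Acaa2) and 1 lower (Acadl), and sterol synthesis genes 1 of 4 higher and 2 lower. Immediate early genes had 1 of 17 higher (Myc), heat shock genes 1 of 12 lower (Hsph1), and glucocorticoid and circadian genes 1 of 2 higher (Tsc22d3). Collecting vessel and valve genes had 1 of 10 each way, capillary genes 1 of 8 each way, and junction (11 tested), antigen presentation (6), Notch (4) and cycling (2) genes none. Of the marker lists of other cells, FAP markers had 4 of 4 higher, with a median log2 ratio of 4.24, and without mixed barcodes 2 of them had too few UMIs to compare. MuSC markers had 1 of 1 higher (Sdc4) and blood endothelial markers 1 of 7 higher and 1 lower (Ly6c1 and Aqp1). Aqp1, a leading gene of the Lyve1-high subset, was level within that subset, at 197 CPM in WT HFD and 202 in KO HFD. In Lyve1-low barcodes it had 1 UMI in each of these libraries. In the comparison of WT HFD with WT CD, B cell markers had 2 of 2 lower, FAP markers 1 of 1 lower, MuSC markers 1 of 1 lower (Sdc4) and blood endothelial markers 1 of 6 higher.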

How the data were processed

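The 3 libraries were 10x Genomics 3' v3.1 libraries prepared on 1 day. The authors deposited UMI counts per gene and barcode from Cell Ranger on GRCm38 (mm10). The submitters' processing notes give version 6.1.1. The deposited counts held 3774 to 4369 barcodes per library and 32285 genes. Gene positions came from GENCODE vM21 of the same build, which held 32235 of the gene identifiers.

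The lymphatic barcodes were found by the rule stated in the results, and all of the 262 are accounted for. Members and gene lists were chosen with earlier results of these data known. Counts were summed per library and expressed as CPM. Intervals were exact Poisson (CPM), conditional binomial (ratios), Clopper-Pearson (shares) and Newcombe (differences of shares), all at 95%. A count of 0 was set to 3 UMIs in ratios. Genes with at least 50 CPM in 1 library of a pair were compared and called at 1.5-fold. No p-value was computed. UMIs are molecules, so the intervals cover counting error only.

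Genes named were the 10 largest rises and falls with at least 100 CPM in 1 library (mitochondrial genes and Xist left out), the 15 largest ratios to blood endothelial barcodes and to barcodes of neither endothelial set with at least 200 CPM, list members, and up to 8 leading genes per subset detected in at least 25% of its barcodes. Subsets came from k-means (k = 3, 50 starts) on 10 principal components of 1000 variable genes. Scrublet (expected rate 0.06) marked 151 barcodes in all and 2 members, which stayed in. Alternatives were other UMI thresholds, no exclusion, cell filters, doublet removal, thinning to 3000 UMIs, a Leiden cluster, TMM and median-of-ratios factors, equal weight per cell or subset, and other CPM minimums. Leaving out mixed or top barcodes was chosen after seeing the data. Scripts were tested on simulated counts. Software was scanpy 1.11.5, leidenalg 0.10.2, matplotlib 3.10.9, scikit-learn 1.9.0, scipy 1.17.1 and numpy 2.4.6 under Python 3.11.15. TMM factors were from edgeR 4.0.16 (R 4.3.3).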

Additional observations from a re-analysis of the deposited data

How the results depend on the processing

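With 1 library per group, no library could be left out and no difference was tested. No paired analysis was possible because each group is 1 library and the labels give no replicate numbers. Lymphatic shares stayed within their counting intervals under every alternative run. The counts of genes past 1.5-fold depended on scaling and on the CPM minimum. For WT HFD against WT CD, the 540 higher genes became 339 with TMM factors, 310 with median-of-ratios factors, 1396 at a minimum of 20 CPM and 178 at 100 CPM, and the 118 lower genes became 186, 205, 501 and 34, and also 340 with thinning and 190 with each cell weighted alike. For KO HFD against WT HFD, the 155 higher genes became 379 with thinning, 550 at 20 CPM and 45 at 100 CPM, and the 314 lower genes became 516, 923 and 92. Scaling brought the 2 directions closer, with 218 higher and 227 lower by median-of-ratios factors and 227 and 338 with each cell weighted alike.

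Among the genes named for the size of their ratio, directions turned for 4 when both subsets were kept together. Ccl2 of the trafficking list turned as given in the results. Within Lyve1-high barcodes alone, Gem also turned, from -1.40 to 0.46 for WT HFD against WT CD. Mt1 turned there for KO HFD against WT HFD as well, from 1.96 to -0.73. Mt2 (WT HFD against WT CD, -1.93) became 0.67 at 5 or more UMIs, 0.89 with thinning, 0.75 in the Leiden cluster, 1.12 without mixed barcodes and 0.38 without top barcodes. Mt1 (-1.47) became 0.095 in the Leiden cluster and 0.74 without mixed barcodes. For KO HFD against WT HFD, Cxcl14 became -1.01 without the Ptprc and Pdgfra exclusion and Mgp -0.80 without it and -0.53 in the Leiden cluster. Spp1 and Cxcl14 had no UMI left to compare without the mixed or top barcodes. The alternatives themselves change which barcodes enter, and other causes were not tested. The Leiden cluster held 274 barcodes, 258 of them members.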

Other observations

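Genes of the imprinted Igf2 and H19 pair were high in Lyve1-high barcodes in all 3 libraries. Igf2, which encodes insulin-like growth factor 2, stood at 559, 266 and 550.4 CPM in WT CD, WT HFD and KO HFD Lyve1-high barcodes and at 11, 15.7 and 11.4 CPM in Lyve1-low barcodes. H19, a noncoding RNA from the same locus, stood at 300.2, 206 and 372 CPM and at 18.3, 47.0 and 39.8 CPM. UMIs of Igf2 were found in 50.8% of Lyve1-high and 7.80% of Lyve1-low barcodes, and those of H19 in 23.3% and 11.3%. In Lyve1-high barcodes the H19 UMIs numbered 36, 69 and 46 and lay in 4, 18 and 6 barcodes of WT CD, WT HFD and KO HFD. Both genes entered the clustering that made the subsets, so these are descriptions.

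The matrix metalloproteinase gene Mmp14 showed the same side, at 158, 260.1 and 154 CPM in Lyve1-high and 11, 33.6 and 42.6 CPM in Lyve1-low barcodes, and it was not used in the clustering. Lcn2 lay on the other side, at 434, 532 and 664 CPM in Lyve1-high and 690.5, 1141 and 1154 CPM in Lyve1-low barcodes.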
